A study of Mus musculus with 18 samples.

Results

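The cytosolic ribosomal protein genes were taken as the gene names on the array that consist of Rpl or Rps and a number, with an optional a, x or y and a further number, together with Rplp0, Rplp1, Rplp2 and Rpsa. S6 kinases and mitochondrial ribosomal proteins were left out. The rule uses names only and found 76 of the 27962 gene names on the array, 31 of the small subunit and 45 of the large subunit. All 76 were well above background in the sample channel on all 18 arrays, so none was lost to the filter on dim probes, which 20467 genes passed. Each gene was represented by its brightest probe, and 70 of the 76 had a value on every array.

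The arrays hold RNA of sorted mouse thyroid cells. TSP are side population cells of thyroids after partial thyroidectomy, on 6 arrays, and CSP are side population cells of thyroids without that surgery, on 6 arrays. TMP and CMP are the main population cells sorted beside them, with and without surgery, on 3 arrays each. All 4 groups came from C57BL/6 animals labelled male/female, without an age in the sources used here, and in all 4 the dissociated cells were kept in culture for 2 days before the sort, so no group is a direct profile of thyroid tissue. Side population cells are those that pump out a Hoechst DNA dye unless verapamil is present; the sort selects by this efflux and not by a cell type marker. Each array compares 1 sample, labelled with Cy5, with a Cy3-labelled commercial pool of RNA from several Swiss Webster mouse tissues. Values are therefore log2 ratios of sample to pool, a ratio of 0 means the level of the pool, and a difference of 1 between groups is a 2-fold difference. The ratios are relative to all genes of an array, so they do not measure the amount of ribosomal protein RNA per cell, and fewer cells of a type cannot be told apart from less RNA per cell.

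Ribosomal proteins and ribosomal RNAs form the 2 subunits of the ribosome: the small subunit reads the messenger RNA and the large subunit joins amino acids. The messenger RNAs of these proteins are among the most abundant of a cell, and most begin with a pyrimidine tract, the 5′ terminal oligopyrimidine motif, through which the mTOR pathway sets their translation. Their levels in a mixed cell preparation follow both the kinds of cells in it and their growth.

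The probes of 4 members called between side and main population are shown first, because each difference is a statement about 1 stretch of 60 bases, together with the probe of Rplp0, which is often used as an unchanging control. The scanner files give them with mm7 positions. They lie at chr4:151319591-151319650 on the plus strand (Rpl22), chr4:86259708-86259899 on the minus strand (Rps6), chr16:55822131-55822190 on the plus strand (Rpl24), chr16:32732018-32733213 and chr16:32732033-32733233 on the plus strand (the brightest and the overlapping probe of Rpl35a) and chr8:101459316-101459375 on the minus strand (Rplp0). A probe whose position spans more than its own length, as for Rps6 and Rpl35a, is split on the genome, as a probe over an exon junction would be. Capitals mark the bases at which the 2 overlapping probes of Rpl35a differ.
Rpl22: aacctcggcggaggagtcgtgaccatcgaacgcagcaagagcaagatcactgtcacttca
Rps6: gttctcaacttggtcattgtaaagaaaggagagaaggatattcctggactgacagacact
Rpl24: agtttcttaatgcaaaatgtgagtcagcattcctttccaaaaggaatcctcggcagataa
Rpl35a: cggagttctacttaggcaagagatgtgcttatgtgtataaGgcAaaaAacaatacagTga
Rpl35a, overlapping probe: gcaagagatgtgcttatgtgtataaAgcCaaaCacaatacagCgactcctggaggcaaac
Rplp0: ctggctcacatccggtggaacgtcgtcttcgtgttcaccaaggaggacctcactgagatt

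The Rpl35a pair shares 45 bases with 4 differences. Ribosomal protein genes have many processed pseudogenes, and without a genome of this build the number of further matches of a probe was not counted. Of the 75 members whose probe has a position, 74 lay on the chromosome that RefSeq gives for the gene. The exception was Rplp0, whose probe was designed on a partial coding sequence and placed on chromosome 8, whereas RefSeq has the gene on chromosome 5.

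Before the groups are compared, 2 features of the arrays need to be given. Over 19999 genes, the correlation of TSP 1 and TSP 2 with the main population had a median of 0.95, against 0.69 with the other side population arrays, a description of arrays that share 1 reference pool. TSP results are given with these arrays and, for most counts and for some of the members described singly, also without them. Since they were set apart by their likeness to the main population, a comparison of TSP with TMP without them is conditional on that choice. The 18 arrays lie on 5 slides, numbered here in the order of scanning, and no slide holds all 4 groups. The share of spots that passed the scanner's background criterion in the sample channel ran from 38.8% to 72.0%, and no spot of a member was saturated in either channel. However, on each array 60 to 71 members counted as scaled in Cy5 and 55 to 69 in Cy3. This is not the scaling to equal spread used below. The absence of saturation therefore does not show that these signals were read unscaled, and the effect on the ratios was not tested. Outlier spots left Rpl13a without a value on CMP 1 and CMP 2, Rpl27, Rps24 and Rps7 on CSP 1 and Rps27a on TSP 5, and those values stand out of the fits.

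As a group, the ribosomal protein genes were above the pool on all 18 arrays, and furthest above it in side population cells. The median over the 76 members ranged from 0.37 to 1.32 on the 6 TSP arrays, from 0.61 to 1.16 on the 6 CSP arrays, from 0.06 to 0.73 on the 3 TMP arrays and from 0.01 to 0.71 on the 3 CMP arrays. The mean of these array medians was 0.71 ± 0.41 in TSP, 0.99 ± 0.20 in CSP, 0.35 ± 0.34 in TMP and 0.38 ± 0.35 in CMP (SD, n = 6, 6, 3 and 3). TSP overlapped every other group, while CSP overlapped CMP through the CMP array on slide 5 alone.

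The slide moved with these medians in the main population. On slide 2, TMP 1 and CMP 1 had medians of 0.06 and 0.01. Slide 4 gave 0.27 for TMP 2 and 0.41 for CMP 2, and slide 5 gave 0.73 for TMP 3 and 0.71 for CMP 3. The spread between slides was thus larger than that between the 2 main population arrays of a slide. Within slides, the side population lay above the main population: on slide 4, CSP 5 and CSP 6 had medians of 1.00 and 1.04, and on slide 5, TSP 5 and TSP 6 had medians of 1.12 and 1.32.

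**Figure D1:**
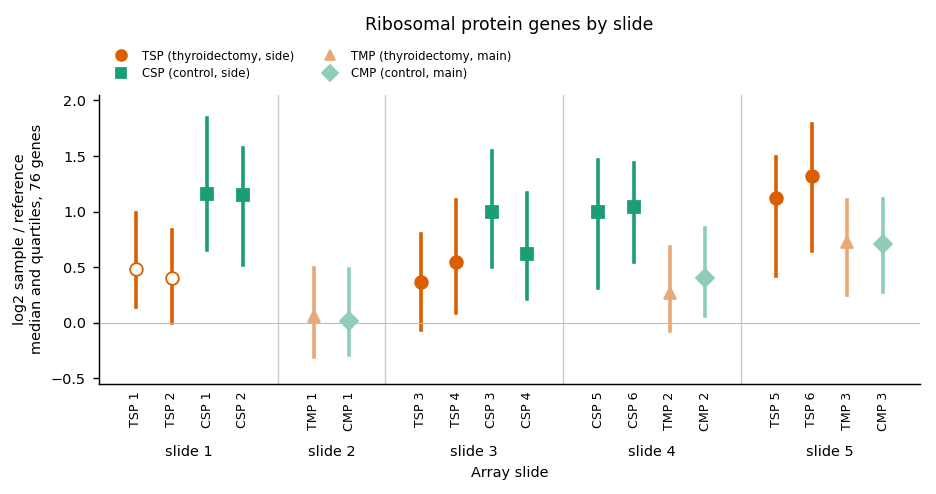
Median (symbol) and quartiles (bar) of the log2 ratio of sample to reference pool over the 76 ribosomal protein genes on each array, arranged by slide; hollow circles are TSP 1 and TSP 2. The 2 main population arrays of a slide lie close together, and on slides 4 and 5 the side population arrays lie above them.

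The comparison of CSP with CMP shows what separates side from main population cells without surgery. In CSP, 14 of the 76 members (18.4%) were higher and 0 lower by limma at an adjusted p under 0.05, against 7.61% of all genes tested that were called higher and 7.24% called lower. The 14 were split evenly, 7 in each subunit. Of the 62 members not called, 56 had a difference above 0. Over all members this was 70 of 76, against 54.5% of all genes, and the median difference of the members was 0.52, against 0.06 over all genes. The median was 0.66 over the 31 small subunit genes and 0.45 over the 45 large subunit genes. In 18 of the 76 every CSP array lay above every CMP array, and in 0 every CSP array lay below, against 11.1% and 9.18% of all genes.

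Among small subunit proteins, Rps6, the substrate of the S6 kinases, had the largest called difference. Its log2 ratio was 1.31, 1.69 and 2.41 (lowest, median and highest of 6) in CSP, against 0.03, 0.09 and 0.18 in CMP. The groups did not overlap, and the difference was 1.69 ± 0.36 (SE), a 3.22-fold higher level in CSP (limma, adjusted p = 0.00885).

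Rps21, Rps15a, Rps10 and Rps24, also of the small subunit, were called higher in CSP, with log2 differences of 1.18, 1.00, 0.96 and 0.92. Rps10 and Rps24, which are mutated in forms of Diamond-Blackfan anaemia in humans, had smaller changes of 1.95-fold and 1.89-fold. In Rps10 the groups overlapped, at 0.63 on the lowest CSP array against 0.82 on the highest CMP array. Rps24 had no value on CSP 1, and its 5 CSP values started at 1.16, above the highest CMP value of 0.67. Rps15a varied most within CSP, where CSP 1 reached 2.87 and the lowest array 0.94, against 0.62, 0.62 and 0.68 in CMP.

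Among large subunit proteins, Rpl22, an RNA-binding protein known to bind a small RNA of Epstein-Barr virus, had the largest difference of all members. Its ratio was 1.53, 2.14 and 2.34 (lowest, median and highest) in CSP, against -0.36, -0.06 and 0.56 in CMP. This was a 3.90-fold higher level in CSP, a difference of 1.96 ± 0.36 (limma, adjusted p = 0.00798). Rpl24, which bridges the 2 subunits, had 0.77, 1.14 and 1.34 in CSP, against -0.37, -0.48 and -0.16 in CMP. It had the smallest error of the 14, with a difference of 1.42 ± 0.20, or 2.68-fold (limma, adjusted p = 0.00798).

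Rpl32 lay between 1.23 and 1.61 on all CSP arrays, against -0.48, 0.11 and 0.73 in CMP, and was 2.51-fold higher in CSP. Rpl35a, another Diamond-Blackfan anaemia gene of humans, was 2.33-fold higher, at 1.17, 1.47 and 1.73 in CSP and -0.47, 0.41 and 0.81 in CMP. Rpl9, Rpl17 and Rpl13 had log2 differences of 0.91, 0.83 and 0.82, or 1.88-fold, 1.78-fold and 1.76-fold. These smaller calls were the less stable ones: of 35 alternative settings, Rpl9 lost its call in 22, Rps24 in 19, Rpl17 in 17, Rps10 in 14 and Rpl13 and Rps15a in 13 each, whereas Rps6 and Rpl24 lost theirs in 2 and Rpl22 in 3. These settings leave out the other probes of a gene. As given below, the second probe of Rpl24 was also higher in CSP, that of Rpl22 was lower and those of Rps6 and Rps15a were near 0. Over the 14 called members the adjusted p from limma ran to 0.0454, in Rpl9.

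Members that were not called include those that are often singled out. The stalk proteins Rplp0, Rplp1 and Rplp2 recruit the translation factors that use GTP to the large subunit, and their differences were 0.03 ± 0.26, 0.43 ± 0.33 and 0.24 ± 0.36 (SE). Rplp0, which other work uses as a control gene, lay between -0.51 and 0.01 in CSP, against -0.28, -1.02 and 0.21 in CMP. Rpsa, also known as a laminin receptor, differed by 0.40 ± 0.26, with all its ratios below 0 in both groups. Rpl13a, a member of an interferon-induced complex that silences translation in human cells, had a difference of 1.58 that rests on 1 CMP array, since the other 2 had no value, and was not called (adjusted p = 0.246 by limma). At the lower end, Rps2, Rps26, Rpl23a and Rpl5 had differences of -0.28, -0.16, -0.13 and -0.13, each with an SE of 0.30 to 0.39 and none called.

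**Figure D2:**
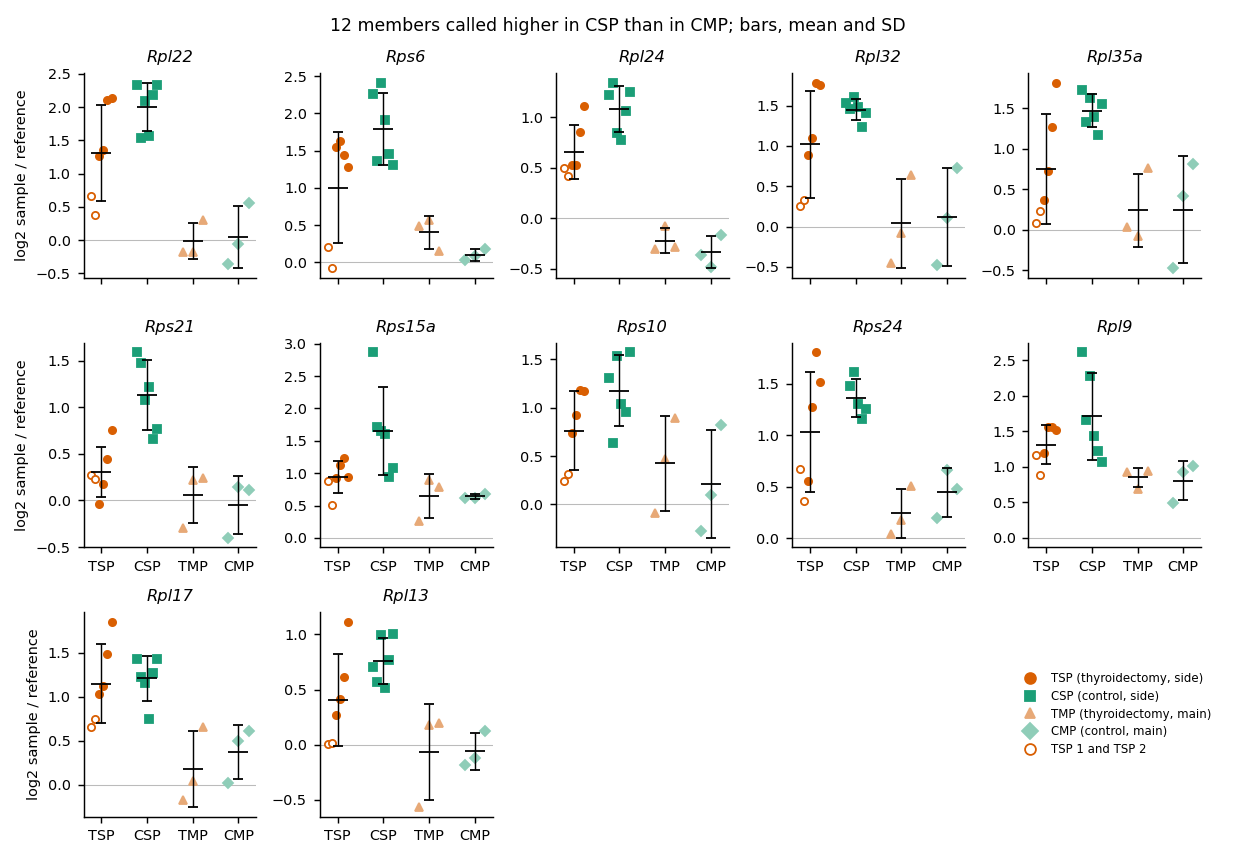
Log2 ratio of sample to reference pool on each array for 12 of the 14 members called higher in CSP than in CMP, with the mean and SD of each group; hollow circles are TSP 1 and TSP 2. In Rpl22 and Rps6 every CSP array lies above every CMP array, and TSP 1 and TSP 2 lie below the other 4 TSP arrays.

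The count of called members changed with the arrays kept and with the scaling. It was 5 without CMP 1, 6 without CMP 2 and 11 without CMP 3. It was 9 without CSP 1, 8 without CSP 3 and 0 when arrays were scaled to equal spread. The share of all genes called higher moved as well, to 2.76%, 1.48%, 5.43%, 6.20%, 6.72% and 0.850% in that order. With slide as a block 34 members were higher and 1 lower (Rps2), against 17.3% and 10.8% of all genes; of the 14, 12 were still called, and Rpl9 and Rps15a were not (limma, adjusted p = 0.100 and 0.142). Fitted without TSP 1 and TSP 2, which enter only through the common variance, it was 15, against 10.2% of all genes higher and 9.04% lower, and with both changes 28, against 12.4% and 8.64%. Within slide 4, the only slide with both groups, 60 of 74 members were above 0 with a median of 0.53, against 58.6% of all genes and a median of 0.15, from 2 CSP arrays and 1 CMP array.

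**Figure D3:**
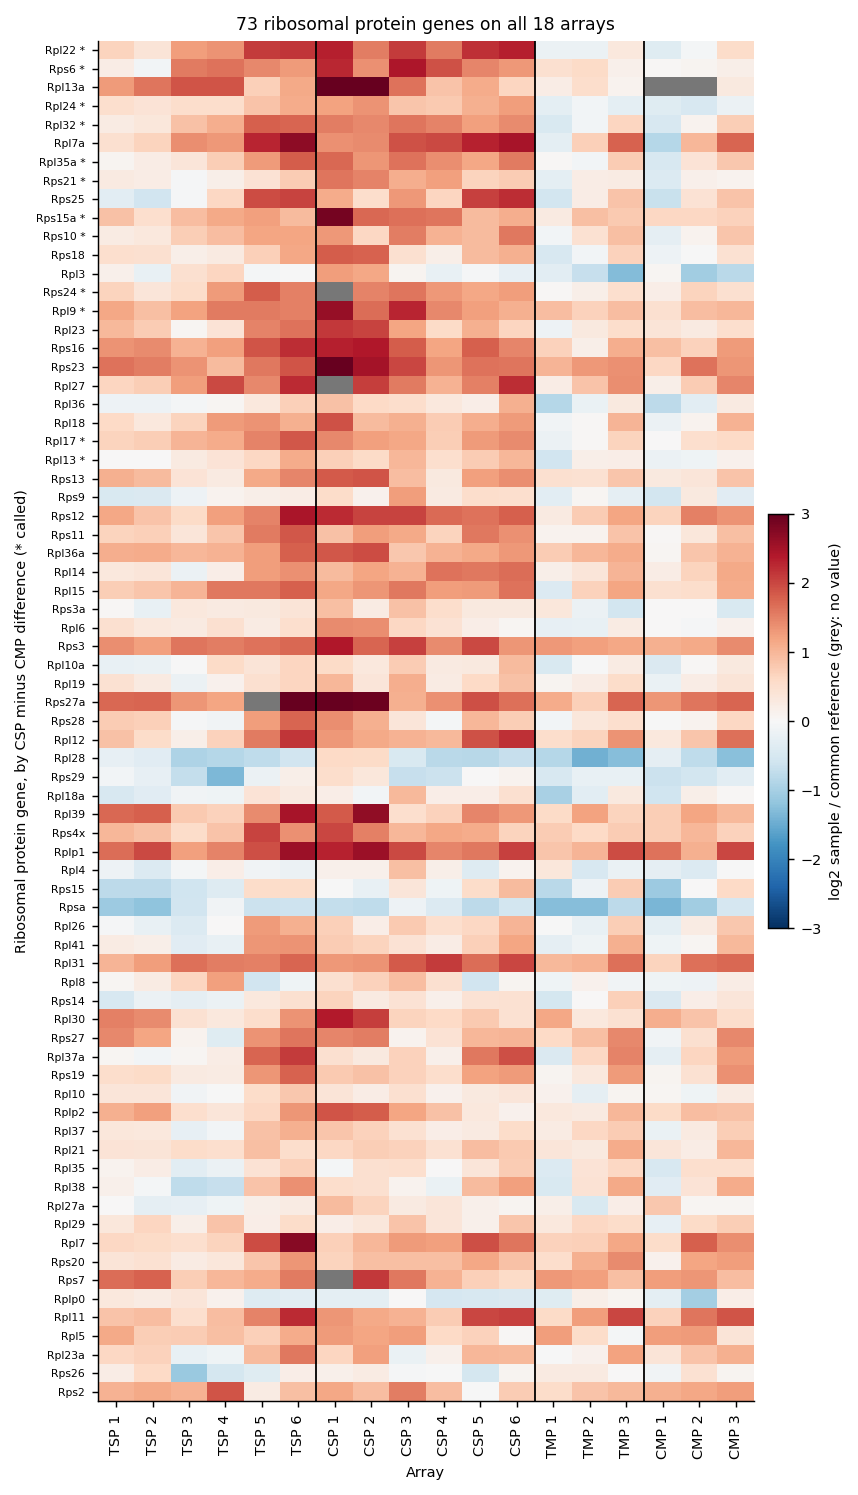
Log2 ratio of sample to reference pool for 73 of the 76 members (rows, ordered by the difference of CSP from CMP, called members starred) on the 18 arrays (columns, TSP, CSP, TMP, CMP from left to right); colours end at 3 and -3 and grey marks a missing value. Rpl22 and Rps6 stand at the top and Rps2 at the bottom, and TSP 5 and TSP 6 are redder than TSP 1 to TSP 4 over many rows.

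Other probes of the same gene give a second reading on the same arrays. Of the 76 members, 38 had more than 1 probe past the filter; in 28 of these all probes lay on the same side of 0 for CSP minus CMP, in 10 they did not, and in 5 they were over 1 apart. Among the 14 called members, 10 had other probes, 14 in all, of which 11 were above 0 and 7 were called higher in a limma fit over all 29822 probes. The share of all probes called in that fit is not given here. These genes were also picked by their calls on the same arrays, so the 7 of 14 is a description. Rpl24 gave 1.42 and 1.49, Rps21 gave 1.18, 1.43 and 1.31, and the overlapping probes shown above gave 1.22 and 1.23 for Rpl35a.

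Rpl22 gave opposite readings. Its second probe, at chr4:151323445-151323504 on the plus strand of mm7 and under the same RefSeq accession, was lower in CSP by 1.06 ± 0.34 on the log2 scale (difference -1.06, limma over all probes, adjusted p = 0.049), while the brighter probe was higher by 1.96. Rps6 and Rps15a had a second probe with a difference near 0 (-0.02 and -0.01), and both of those were dim, with mean log2 intensities of 7.36 and 7.96. Rpl7 went the other way: its brightest probe differed by 0.05 ± 0.44, and its other 2 by 0.84 ± 0.33 and 1.27 ± 0.33, the second of them called (limma over all probes, adjusted p = 0.0181). Rpl11, which binds Mdm2 when ribosome assembly is disturbed, had -0.00 ± 0.40 with its brightest probe and 1.55 ± 0.55 with a dim one (mean log2 intensity 9.51), which was not called. The gene-level values of Rpl22, Rps6, Rpl11, Rpl7 and Rps15a, whose probes lie over 1 apart, therefore depend on the probe that stands for the gene.

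**Figure D4:**
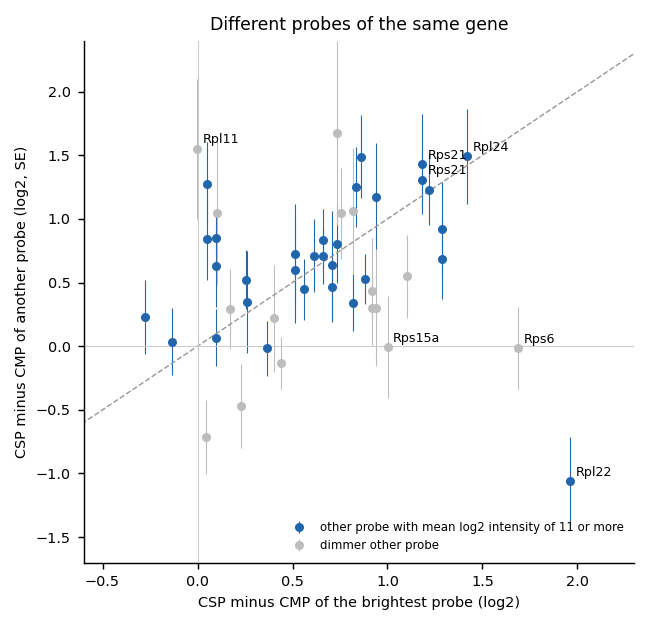
Difference CSP minus CMP (log2) of 47 other probes of members (vertical, with SE) against that of the gene's brightest probe (horizontal); grey points are 16 probes with a mean log2 intensity under 11, and the dashed line is equality. Rpl24 and Rps21 lie near the line, and Rpl22 lies below 0 for its second probe.

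The comparison of TSP with TMP asks the same question after surgery. With all arrays, 0 of 76 members and 0% of all genes were called by limma, while 10 members (13.2%) had an unadjusted p under 0.05, against 13.7% of all genes. The members' median difference was 0.30, against 0.03 over all genes, and 61 of 76 were above 0, against 52.7% of all genes. The members' median was 0.86 when arrays were scaled to equal spread. In 7 members every TSP array lay above every TMP array and in 0 below, against 1.48% and 2.49% of all genes. Leaving out TSP 1 and TSP 2 made this 15 and 0 members, against 12.6% and 11.2% of all genes, which is conditional on that choice. Without TSP 1 and TSP 2, 9 members were higher and 0 lower, against 7.68% and 7.01% of all genes, and the median was 0.41 with 64 of 76 above 0; the choice of arrays uses the difference that is compared, so these calls are a description. Of these 9, 8 were also among the 14 called in CSP, which is 8 of 9 and 8 of 14; the 2 comparisons share no array, but their main population arrays lie in pairs on the same slides and deviated together (r of 0.67, 0.74 and 0.81), so they are not independent. The ninth was Rpl15. The same overlap over all genes is not given here, so the 8 of 9 cannot be read as particular to the members.

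By its brightest probe, Rpl22 had the largest difference here too; its second probe differed by -0.76 ± 0.34 with all arrays (limma over all probes, adjusted p = 0.378). Its ratios were 0.67, 0.38, 1.26, 1.35, 2.10 and 2.13 on TSP 1 to TSP 6, against -0.18, -0.17 and 0.31 in TMP. Every TSP array lay above every TMP array, and without TSP 1 and TSP 2 the difference was 1.73 ± 0.31 (limma, adjusted p = 0.000842), against 1.33 ± 0.36 and an adjusted p of 0.252 by limma with them. Rps6 had 0.21, -0.08, 1.55, 1.63, 1.44 and 1.28 in TSP, against 0.48, 0.58 and 0.16 in TMP. TSP 1 and TSP 2 lay within or below the TMP range, and the other 4 lay above it.

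Rpl32 (0.26, 0.33, 0.88, 1.09, 1.79 and 1.75 in TSP, against -0.45, -0.08 and 0.64 in TMP) differed by 1.34 ± 0.32 without TSP 1 and TSP 2 (limma, adjusted p = 0.00702) and by 0.98 ± 0.35 with them, where it was not called (limma, adjusted p = 0.255). Rpl17 had 0.66, 0.75, 1.03, 1.12, 1.49 and 1.85 in TSP, against -0.17, 0.04 and 0.66 in TMP. Its difference without those 2 arrays was 1.20 ± 0.27 (limma, adjusted p = 0.00548), and with them 0.97 ± 0.27 and not called (limma, adjusted p = 0.252). Rps24 and Rpl24 differed by 1.04 and 0.98 without those arrays, and by 0.79 and 0.88 with them, again not called (limma, adjusted p = 0.261 and 0.252). At the other end, with all arrays, Rps20, Rps26, Rpl38, Rps15 and Rpl37 had differences of -0.40, -0.35, -0.22, -0.18 and -0.16, none called. Rpl3, at the peptidyl transferase centre, and Rpl13a had 0.93 ± 0.36 and 1.13 ± 0.57 with all arrays, also not called, and Rplp0, Rplp1, Rplp2 and Rpsa had 0.09, 0.54, 0.33 and 0.40.

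With slide as a block, 4 members were higher with all arrays and 13 without TSP 1 and TSP 2, against 0.782% and 8.33% of all genes higher and 0.313% and 7.37% lower. On slide 5, where TSP 5, TSP 6 and TMP 3 lie, 61 of 76 members were above 0 with a median of 0.43, against 52.7% of all genes and a median of 0.05.

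The comparison of TSP with CSP shows the side population after and without surgery. No member passed the test (limma, 0 of 76 and 0% of all genes), while 11 (14.5%) had an unadjusted p under 0.05, against 9.1% of all genes. The median difference was -0.31, against -0.04 over all genes, but 0.29 when arrays were scaled to equal spread. With loess alone 7 of 76 were above 0, against 45.2% of all genes. Without TSP 1 and TSP 2 the median was -0.19, with 11 of 76 above 0, against 48.7% of all genes, and 2 members (2.63%) had an unadjusted p under 0.05, against 3.43% of all genes. In 0 of the 76 members were the groups free of overlap in either direction, against 0.161% above and 0.303% below among all genes; without TSP 1 and TSP 2 this was also 0, against 0.342% and 0.498%.

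Rps21 had the lowest difference, at -0.83 ± 0.20 (adjusted p = 0.356 by limma): its ratios were 0.27, 0.23, -0.04, 0.17, 0.44 and 0.76 in TSP, against 0.66, 1.15 and 1.59 (lowest, median and highest) in CSP. The groups overlapped through TSP 6 alone. Rpl14, Rps6, Rpl35a and Rps15a followed with -0.79, -0.78, -0.72 and -0.71. Without TSP 1 and TSP 2, Rps21 had -0.80 and these 4 had -0.69, -0.31, -0.42 and -0.59, so that Rps6 and Rpl35a moved most. Rps6 lay between 1.28 and 1.63 on TSP 3 to TSP 6, within the CSP range of 1.31 to 2.41 on all but TSP 6. At the upper end were Rplp0 with 0.39 ± 0.21, Rps2 with 0.16, Rps7 with 0.11, Rpl39 with 0.07 and Rpl5 with 0.06. Rplp1, Rplp2 and Rpsa had -0.18, -0.18 and -0.15.

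Both slides that hold TSP and CSP arrays gave lower members in TSP. On slide 1 the median was -0.68 (5 of 76 above 0, against 44.8% of all genes), but there the TSP arrays are TSP 1 and TSP 2; on slide 3, with TSP 3 and TSP 4, it was -0.39 (11 of 76 above 0, against 40.1%). With slide as a block, 16 members were lower in TSP, among them Rpl35a by 1.02, Rpl14 by 1.00 and Rps21 by 0.97 on the log2 scale, against 2.69% of all genes lower and 1.71% higher. Without TSP 1 and TSP 2 this count was 0 in limma (24 members, 31.6%, at an unadjusted p under 0.05, against 13.6% of all genes), against 0.0391%.

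The comparison of TMP with CMP shows the main population after and without surgery. No member passed (limma, 0 of 76 and 0% of all genes), and 0 had an unadjusted p under 0.05, against 25 of all 20467 genes. The median difference was -0.03 and the members ranged from -0.44 in Rpl28 to 0.38 in Rps27. Rpl28 had -0.86, -1.43 and -1.29 in TMP, against -0.26, -0.75 and -1.25 in CMP. In Rps12, Rpl7, Rpl5 and Rps2 the differences were -0.43, -0.39, -0.38 and -0.37, and in Rplp0, Rps6, Rpl36a and Rpl37 they were 0.33, 0.31, 0.30 and 0.26. The groups overlapped in all but 1 member, against 1.82% and 1.24% of all genes whose TMP arrays all lay above or below CMP. That member was Rps2, the only one whose 3 TMP ratios (0.56, 0.85 and 0.96) all lay below its 3 CMP ratios (1.07, 1.16 and 1.26). Rplp1, Rplp2 and Rpsa differed by -0.30, -0.26 and -0.14.

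The 3 slides with both groups gave medians of 0.05, -0.14 and -0.02 on slides 2, 4 and 5. The difference between the 2 populations' responses to surgery, fitted as an interaction, was called in 0 members and 0% of all genes by limma, and 2 members (2.63%) had an unadjusted p under 0.05, against 1.08% of all genes. Its median was -0.24 with all arrays, -0.13 without TSP 1 and TSP 2, and 0.26 when arrays were scaled to equal spread. With slide as a block the median was -0.40, and 23 members (30.3%) had an unadjusted p under 0.05, against 8.55% of all genes, with 0 called by limma.

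**Figure D5:**
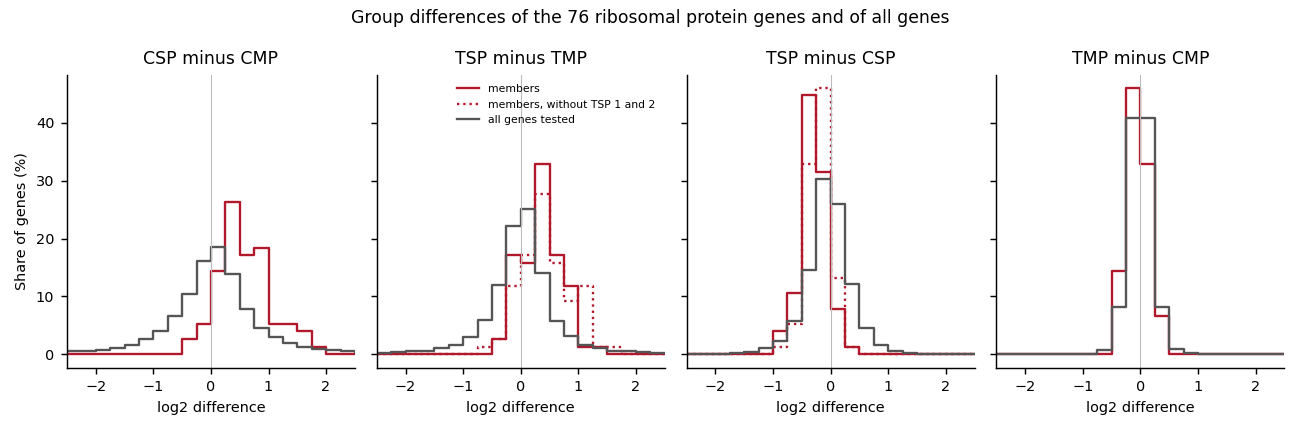
Share of genes (%) by log2 difference in bins of 0.25 for the 76 members (red), the same without TSP 1 and TSP 2 (dotted, in the comparisons that use them) and all 20467 genes tested (grey). The members lie to the right of all genes in CSP minus CMP and TSP minus TMP, to the left in TSP minus CSP (where scaling to equal spread turned the median to 0.29), and with them in TMP minus CMP.

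Genes that work with the ribosome were followed in CSP minus CMP through lists chosen with earlier results of these data known. Of 2 small subunit proteins with other names, Gnb2l1, the scaffold protein Rack1, was higher in CSP by 1.17 ± 0.29 and Fau was not called. Of 5 tested paralogs of ribosomal proteins 0 were called. Of 51 ribosome biogenesis genes 8 were higher and 0 lower, with a median difference of 0.33, against 7.61% of all genes higher, 7.24% lower and a median of 0.06. With slide as a block 8 of the 51 were higher and 3 lower, against 17.3% and 10.8% of all genes. Among the 8 higher without the block were Emg1, a methyltransferase of 18S ribosomal RNA, with 1.42, Gnl3, the nucleolar GTPase nucleostemin, with 1.14, Mphosph10 with 1.06 and the kinase Riok1 with 1.02.

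For the lists that follow, the shares of all genes in CSP minus CMP without a slide block were again 7.61% higher and 7.24% lower. Of 16 RNA polymerase I genes 2 were higher, Znrd1 and Rpo1-3, by 1.07 and 0.98. Of 10 genes in the elongation list 3 were higher: Tpt1, whose messenger RNA also begins with a pyrimidine tract, by 1.84, Eef1a1 by 1.01 and Eef1b2 by 0.75. Of 20 initiation factors 1 was higher (Eif1b, 0.82), with a median over the list of -0.14, and of 15 genes of the mTOR and S6 kinase list 2 were higher, Rps6ka3 by 0.91 and Myc by 0.90. The 75 mitochondrial ribosomal proteins, which belong to a separate ribosome, had 3 higher (Mrpl52, Mrpl48 and Mrpl15) and 1 lower (Mrps6), with a median of 0.10. With slide as a block, 3 initiation factors were higher and 4 lower, 1 gene of the mTOR and S6 kinase list was higher and 2 lower, and 12 mitochondrial ribosomal proteins were higher and 3 lower, against 17.3% and 10.8% of all genes. In TSP minus TMP, TSP minus CSP and TMP minus CMP, 0 genes of these lists were called with all arrays, as was the case for all genes. Without TSP 1 and TSP 2, TSP minus TMP had 2 of 51 ribosome biogenesis and 3 of 16 RNA polymerase I genes higher. Of 20 initiation factors 2 were higher and 1 lower, and 4 of 75 mitochondrial ribosomal proteins were lower. Over all genes 7.68% were higher and 7.01% lower in that fit, which is conditional on the choice of arrays.

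The cell type markers moved with the populations. In CSP against CMP, 8 of 8 endothelial and 6 of 8 fibroblast markers were higher, and 8 of 8 epithelial and 6 of 9 follicular markers were lower. The mean log2 ratio over the 8 endothelial markers ranged from 0.96 to 2.59 on CSP arrays, against -1.94 to -1.34 on CMP arrays, and over the 8 epithelial markers from -1.25 to 2.71 in CSP, against 3.78 to 4.26 in CMP. Over the 9 follicular markers, the labelled tissue's own, it ranged from -0.63 to 0.89 in CSP, against 1.73 to 2.16 in CMP. TSP 1 and TSP 2 had endothelial means of -1.74 and -1.69, against 1.03 to 2.15 on TSP 3 to TSP 6. Of the other lists, 1 of 6 smooth muscle and pericyte markers was higher, 1 of 8 macrophage and leukocyte markers was higher and 3 were lower, and 0 of 6 lymphocyte, 0 of 5 C cell and parathyroid and 0 of 3 erythroid markers were called in either direction. In TSP against TMP with all arrays, 0 of the endothelial, fibroblast, epithelial and follicular markers were called. Without TSP 1 and TSP 2, 8 of 8 endothelial and 8 of 8 fibroblast markers were higher, and 8 of 8 epithelial and 6 of 9 follicular markers were lower. Of all genes 7.68% were higher and 7.01% lower in that fit. TSP 1 and TSP 2 were set apart by their likeness to the main population, so these marker calls are a description. The part of this difference in cell types in the ribosomal protein results was not tested.

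The 5′ ends of the genes were read from RefSeq promoters (GRCm38.p6), which hold 250 bases before and 50 from each annotated start; 56 of the 76 members matched by symbol, Rps3a as Rps3a1. The windows below run from 10 bases before the start through 20 bases from it, for 3 called members that begin with a pyrimidine tract and for Rpl22, which does not at its annotated start. Capitals mark the unbroken run of C and T from the start base. The windows are chr4:86857348-86857377 on the minus strand (Rps6), chr17:27635225-27635254 on the minus strand (Rps10), chr16:33056472-33056501 on the plus strand (Rpl35a) and chr4:152325716-152325745 on the plus strand (Rpl22).
Rps6: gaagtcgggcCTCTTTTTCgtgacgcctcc
Rps10: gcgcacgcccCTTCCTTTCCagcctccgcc
Rpl35a: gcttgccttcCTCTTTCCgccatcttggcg
Rpl22: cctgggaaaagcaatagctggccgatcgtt

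A C at the start base followed by at least 4 bases of C or T was present in 13 of 56 members (23.2%), against 3.01% of 27025 gene symbols with a promoter; annotated starts may be off by some bases, which this count does not allow for. The 13 had a median difference of 0.68 in CSP minus CMP (range 0.12 to 1.69), and the other 43 had 0.56 (range -0.28 to 1.96), so both groups spanned similar values. In the whole window and on both strands, CCGGAA, the core of ETS family sites, occurred in 31 of 56 members (55.4%), against 16.7% of all symbols. CTCGCGAG, the inner letters of a longer palindrome searched first, occurred in 7 (12.5%), against 1.04%, and AAGATGGC, which resembles sites of Yy1, in 5 (8.93%), against 3.19%. None of these motifs contains another. A match is a description of the letters and not a bound site.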

How the data were processed

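The 18 deposited scanner files hold, per spot, raw intensity and background in 2 channels and flags of other kinds, as the file headers show. Their log10 ratio column, red over green per the file headers, was used only through the processed signals. Feature Extraction is version 9.5.1.1 per the file headers and 8.5.1.1 per the submitters' processing notes. The series values deposited by the authors are log2 ratios for 33040 probes, with normalization not given in the sources used here. In slope and sign they ran with the Cy5 over Cy3 ratios (median slope 0.85, column medians 0.07 to 0.22), and served as an alternative. Of their 18 columns, 9 matched their own scanner file best, 8 another file of the same group and 1 (TSP 6) a CSP file, so arrays are numbered by the scanner files.

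Raw mean intensities were corrected with normexp (offset 50) and normalized by loess within arrays, with controls at weight 0, in limma 3.58.1 under R 4.3.3. Non-uniform and outlier spots were dropped, spots of a probe were averaged, and probes were kept where at least 3 arrays had them above background by the Cy5 flag. Each gene name took its brightest probe. A limma model of 4 group means gave 5 contrasts with Benjamini-Hochberg adjustment over 20467 genes at 0.05. No dye swap exists, so a dye effect common to all arrays cancels in the differences between groups and not in the ratios. The series design calls the samples biological replicates without naming animals. The number of arrays limits the precision. In simulated CSP minus CMP data with 20467 genes, 22 of 100 changes of 1 log2 unit and 82 of 100 of 2 units were called. Only these genes were changed there, with errors independent between arrays. In the data 7.61% of all genes were called higher and 7.24% lower, and arrays of a slide deviated together. The simulated rates are therefore not the power of the real comparison. Same-numbered TMP and CMP arrays share a slide and deviated together (r of 0.67, 0.74 and 0.81), so a pairing by number cannot be told apart from the slide. Same-numbered TSP and CSP arrays had r from -0.05 to 0.46. Among them the same number gave the best match for replicates 3, 4 and 5 and not for 1, 2 and 6. No 2 arrays were duplicates (highest r 0.98). RefSeq tables (GRCm38.p6) served for symbols and promoters; probe positions are mm7. Python 3.11.15 with pandas 2.3.3 and matplotlib 3.10.9 was used for sequences and figures.

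Named members were those called in a contrast, the 5 highest and 5 lowest of each group contrast, Rplp0, Rplp1, Rplp2 and Rpsa, and members not measured on a whole group; from each list of related genes, up to 4 called genes with the largest difference. Rpl15, Rpl11 and the second probes were named after their values were seen. Some members and related genes are not reported here by name. The members and lists were chosen with earlier results of these data known.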

Additional observations from a re-analysis of the deposited data

Results flagged for a closer look

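Single arrays far from the rest of their group were looked for in the 6 CSP and the 6 TSP arrays, for 37 named members and for the median over all members, in 76 groups of values; chance flags about 1 in 20 groups, and 3 were found. The median of the 76 members on CSP 4 was 0.614, below the other 5 CSP arrays, the nearest of which had 0.996. Without CSP 4, 14 members were called higher in CSP than in CMP, against 6.87% of all genes. Of these members, 11 were among the 14 called with CSP 4, where the share of all genes was 7.61%. Rps26 on CSP 5 had -0.528, with the nearest array at -0.042 and the highest at 0.235. Rpl36a on TSP 6 had 1.78, with the nearest array at 1.26 and the lowest at 1.00.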

How the results depend on the processing

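The 14 members higher in CSP than in CMP became 9 with the scanner's processed signals (5.99% of all genes higher) and 5 with median centring (4.18%). They became 8 with Cy5 alone (6.87%) and 0 with scaling to equal spread (0.850%). A replicate block gave 7 (5.19%), and slide as a fixed or a random block gave 34 (17.3% and 14.7%). With a slide block without TSP 1 and TSP 2 there were 28 (12.4%). When 1 array was left out, 5 to 15 members were called, with shares of all genes from 1.48% to 8.45%. The cause was not tested. Within slide 4 only 1 CMP array remains, so no count is given for it. The slide block also called 1 member lower. The count stayed within 1.5 times under the other alternatives, of which Aquantile left the ratios as they were and no spot was saturated. In TSP minus TMP, 9 members were higher without TSP 1 and TSP 2 (7.68% of all genes higher), 4 with the slide block (0.782%) and 13 with both (8.33%). When 1 array was left out, 0 to 4 were higher (4 without TSP 2). The shares of all genes in those fits are not given here, so these counts cannot be read as particular to the members. In TSP minus CSP, 16 were lower with the slide block (2.69% of all genes), 3 with the random block (0.767%), and 41 lower and 1 higher within slide 1 (23.4% and 17.3%), which sets TSP 1 and TSP 2 against 2 CSP arrays and where the median was -0.68. Scaling to equal spread gave medians of 0.29 in TSP minus CSP, 0.86 in TSP minus TMP and 0.26 in the interaction. Median centring moved the all-gene median of TSP minus CSP to 0.24, against -0.31 in the members. The replicate block changed no call in TMP minus CMP, with 0 members called in the main population alone.

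No called member changed sign under the alternatives, other than through its second probe (Rpl22 -1.06, Rps6 -0.016, Rps15a -0.0068). The other 75 changes of sign were of members called in neither fit. In CSP minus CMP they were Rpl5 at 0.13 with Cy5 alone, 0.10 with median centring and 0.060 with the replicate block; Rps26 at 0.062 and 0.047 with Cy5 alone and median centring; Rpl23a at 0.023 with median centring, 0.13, 0.27 and 0.26 with the random, fixed and reduced slide block and 0.12 within slide 4; Rplp0 at -0.046 with processed signals and -0.12, -0.27 and -0.19 with the 3 slide blocks; and Rplp2 at -0.083 and -0.17 with the fixed and reduced block and -0.70 within slide 4. In TSP minus TMP, scaling gave Rpl37 0.32, Rpl38 0.41, Rps15 0.089, Rps20 0.20 and Rplp0 -0.055; Rplp0 was -0.10, -0.27 and -0.35 with the 3 slide blocks, Rplp2 -0.25 and -0.16 and Rpl38 0.049 and 0.0046 with the fixed and reduced block; within slide 5, Rpl37 was 0.22, Rplp0 -0.45 and Rplp2 -0.017; and without TSP 1 and TSP 2, Rplp0 was -0.021 and Rps15 0.096. In TSP minus CSP, Cy5 alone gave Rpl5 -0.17 and Rps2 -0.060; median centring Rpl5 -0.018; scaling Rpl35a 0.15, Rplp1 0.99 and Rplp2 0.44; processed signals Rpl39 -0.037; the random and fixed slide block Rps7 -0.011 and -0.080; the values of the authors Rps7 -0.054; slide 1 Rpl39 -0.49, Rpl5 -0.29 and Rps7 -0.39; slide 3 Rpl5 -0.090 and Rps7 -0.45; and without TSP 1 and TSP 2, Rpl39 was -0.069, Rps7 -0.10 and Rpsa 0.076. In TMP minus CMP within slide 5, Rplp0 was -0.12, Rplp2 0.11, Rps27 -0.00060 and Rps6 -0.024. Leaving out 1 array gave -0.43 to 0.029 for Rpl5, -0.32 to 0.031 for Rpl23a and -0.30 to 0.32 for Rplp0 in CSP minus CMP; -0.55 to 0.23 for Rps15, -0.64 to 0.16 for Rpl38 and -0.074 to 0.19 for Rplp0 in TSP minus TMP; -0.023 to 0.32 for Rps2, -0.051 to 0.33 for Rps7, -0.13 to 0.32 for Rpl39 and -0.10 to 0.15 for Rpl5 in TSP minus CSP; and -0.34 to 0.091 for Rpsa in TMP minus CMP.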
